A study of Homo sapiens with 14 samples.

Results

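The 44 protein-coding genes of the collagen chains were examined in 14 RNA sequencing libraries that follow human pluripotent stem cells on their way to pancreatic β-like cells. The members were all genes whose symbol has the form COL, a number, A and a number. All 44 were found among the 60624 gene identifiers that every library lists. Levels are in TPM, which states how much of a library's transcripts a gene makes up after allowing for its length.

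All cells came from 1 human embryonic stem cell line, MEL1, which carries a green fluorescent protein reporter in 1 copy of the insulin gene. The groups hPSC (undifferentiated stem cells), DE (definitive endoderm), PP2 (pancreatic progenitors) and SC-β (β-like cells made without expansion) had 1 library each and formed batch 1. Batch 2 held 2 libraries each of expandable pancreatic progenitors (ePPs) at passage 9 (ePP-P9), of ePPs at passage 21 (ePP-P21), and of the β-like cells derived from ePPs (ePP-β). In batch 3, pancreatic progenitors were kept for 7 days with the solvent DMSO or with the BET bromodomain inhibitor I-BET151 at 1 μM, in 2 libraries per group. The hPSC cells were grown on CF1 feeder cells, which are mouse fibroblasts, and the ePPs on feeder cells of a kind not given in the sources used here, whereas the direct differentiation was carried out in floating aggregates. Fibroblasts express collagens, and feeder RNA mapped to human genes cannot be told apart from human RNA in the TPM values of hPSC and ePP. Its part in them was not tested. The ePP medium held EGF, bFGF, a TGF-β receptor inhibitor and I-BET151 itself, and the DMSO and I-BET151 groups shared this medium apart from the I-BET151. Nothing in the labels says that the libraries of a group came from separate cultures, so the p-values measure the spread between these libraries, which may be technical.

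Collagens are secreted or membrane proteins in which 3 chains wind into a triple helix. Fibrillar collagens form the banded fibrils of connective tissue. The type IV chains build the sheet-like network of basement membranes, on which pancreatic epithelium rests and next to which β cells lie in the islet. FACIT collagens sit on the surface of fibrils, and the other classes form beaded filaments, anchoring fibrils and short-chain networks, or stay in the cell membrane. Many trimers need chains from different genes, so the levels of partner chains were set beside each other.

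The 6 type IV genes lie as 3 head-to-head pairs, and each pair is transcribed outward from 1 shared stretch of DNA. In the RefSeq promoter table, which held 44 windows for 32 of the 44 genes (build GRCh38.p14), the start sites of COL4A1 and COL4A2 on chromosome 13 were 127 bases apart. Those of COL4A3 and COL4A4 on chromosome 2 were 419 bases apart. COL4A6 had start sites at 2 places, 380 and 1416 bases from that of COL4A5 on chromosome X. The stretches below are shown on the strand of the gene named first, since the levels of these pairs are followed throughout. The capitals mark a GC box (GGGCGG or, on the other strand, CCGCCC) or a CCAAT box (CCAAT or ATTGG).
COL4A2/COL4A1, all bases between the start sites, chr13:110307158-110307283: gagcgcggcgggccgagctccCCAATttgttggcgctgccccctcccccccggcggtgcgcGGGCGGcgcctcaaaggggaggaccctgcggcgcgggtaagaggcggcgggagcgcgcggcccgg
COL4A3, the 250 bases before its start, chr2:227164374-227164623: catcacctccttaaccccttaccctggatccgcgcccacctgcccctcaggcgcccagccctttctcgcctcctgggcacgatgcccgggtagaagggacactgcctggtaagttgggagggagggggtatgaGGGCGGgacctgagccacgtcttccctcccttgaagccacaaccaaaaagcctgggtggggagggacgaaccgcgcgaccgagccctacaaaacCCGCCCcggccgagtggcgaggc
COL4A5, the 250 bases before its start, chrX:108439588-108439837: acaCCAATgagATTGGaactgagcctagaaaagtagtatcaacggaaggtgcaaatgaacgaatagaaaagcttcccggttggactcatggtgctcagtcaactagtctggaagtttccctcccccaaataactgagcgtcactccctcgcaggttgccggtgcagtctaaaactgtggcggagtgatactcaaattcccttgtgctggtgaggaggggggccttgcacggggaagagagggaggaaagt

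The stretch between COL4A1 and COL4A2 held 1 GC box and 1 CCAAT box at a GC content of 80.2%. The COL4A3 stretch held 2 GC boxes and no CCAAT box at 66.4% GC, and the COL4A5 stretch held 2 CCAAT boxes and no GC box at 51.2% GC. A GC box was present in 45.0% of the 35116 promoter windows of 300 bases in the table and in 24 of the 44 collagen windows. A CCAAT box was present in 34.6% of all windows and in 14 of the 44. These are matches of letters only.

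The labels were checked against marker genes. POU5F1 was at 3401 TPM in hPSC and SOX17 at 1139.7 TPM in DE. PDX1, a pancreatic transcription factor, was between 53.8 and 251 TPM from PP2 onward and listed at 0 in hPSC and DE. NKX6-1, by which the paper also defines PP2, was at 0.0649 TPM in hPSC, 1.06 TPM in DE and 23.5 TPM in PP2. It was at 204 and 213 TPM for ePP-P9, 176 and 210 TPM for ePP-P21, 143 and 138 TPM in ePP-β and 181 TPM in SC-β. NKX6-1 was at 102.5 and 51.5 TPM with DMSO and 446 and 208 TPM with I-BET151. From PP2 onward, PP2 was thus highest for PDX1 but lowest for NKX6-1. INS was at 20657 TPM in SC-β and at 10916 and 17374 TPM in ePP-β, and GCG, the glucagon gene of α cells, was at 74281 and at 14107 and 13359.5 TPM in the same libraries. Among 10 mesenchymal marker genes the summed level was 331 TPM in PP2 and 411 TPM in SC-β, 353 TPM in hPSC (of which THY1 gave 342) and 22.9 TPM in DE. This sum was 20.0 and 21.1 TPM for ePP-P9, 33.7 and 21 TPM for ePP-P21, 12.3 and 12.7 TPM in ePP-β, 102 and 75.4 TPM with DMSO and 34.5 and 36.4 TPM with I-BET151. The sum of 7 endothelial markers was 73.4 TPM in PP2 and at most 8.79 TPM in the other 13 libraries. Because TPM keeps no read number, the depth is unknown and an exact 0 is given only as listed at 0. In bulk RNA, fewer cells of a type and less RNA per cell cannot be told apart.

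Of the 44 collagen genes, 27 reached 10 TPM in at least 1 library, 8 peaked between 1 and 10 TPM and 9 stayed under 1 TPM everywhere. There were 12 genes at 1 TPM or more in all 14 libraries, and 5 of these never fell under 10 TPM. The summed level of the 44 genes was 1157 TPM in hPSC, 1315 TPM in DE, 3240.1 TPM in PP2 and 4089.8 TPM in SC-β. In batch 2 the sum was 572 and 598 TPM for ePP-P9, 831 and 811 TPM for ePP-P21 and 555 and 604 TPM in ePP-β. In batch 3 it was 1380.5 and 760.2 TPM with DMSO and 1722 and 615 TPM with I-BET151, so the replicates of each group in batch 3 lay further apart than the groups did. Each group was sequenced in 1 batch only, so a difference between batches and a difference between their groups cannot be told apart, and levels from different batches are set side by side without a test.

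**Figure D1:**
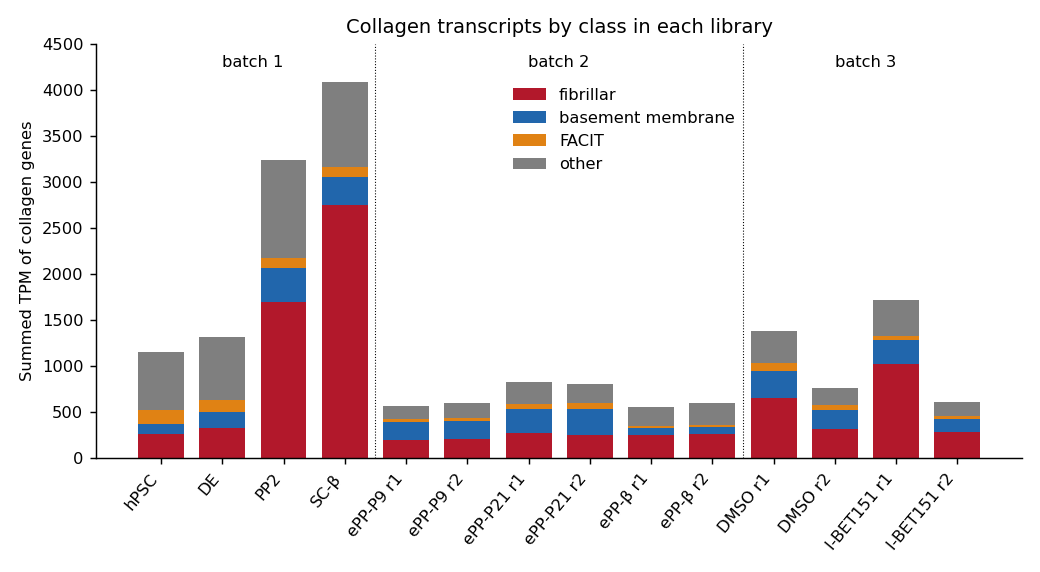
Summed TPM of the 44 collagen genes in each library (vertical axis), stacked by class, with dotted lines between the 3 batches and r1 and r2 for replicates 1 and 2. SC-β has the tallest bar at 4089.8 TPM, of which 2747 TPM are fibrillar, while the basement membrane class lies between 81.6 and 376 TPM throughout.

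The fibrillar class summed to 259 TPM in hPSC, 326 TPM in DE, 1694 TPM in PP2 and 2747 TPM in SC-β. It was at 202 and 205 TPM for ePP-P9, 271 and 247 TPM for ePP-P21, 248 and 261 TPM in ePP-β, 655 and 316 TPM with DMSO and 1021 and 289.7 TPM with I-BET151. PP2 and SC-β, the libraries with the highest fibrillar sums among those of batch 1, also had 8 and 9 of the 10 mesenchymal markers at 1 TPM or more, against 2 to 6 in the other 12 libraries, and the part of such cells in the fibrillar level was not tested. The basement membrane class moved over a narrower range, with 109 TPM in hPSC, 178 TPM in DE, 376 TPM in PP2 and 308 TPM in SC-β. Its sums in batch 2 were 195 and 201 TPM for ePP-P9, 262 and 289.6 TPM for ePP-P21 and 81.6 and 83 TPM in ePP-β, so both ePP-β libraries lay under all 4 ePP libraries. Its sums in batch 3 were 297 and 212 TPM with DMSO and 263 and 138 TPM with I-BET151, with overlapping groups. FACIT genes gave from 16.3 TPM in ePP-β replicate 1 to 159 TPM in hPSC, and the remaining classes gave from 150.8 TPM for ePP-P9 replicate 1 to 1063 TPM in PP2.

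**Figure D2:**
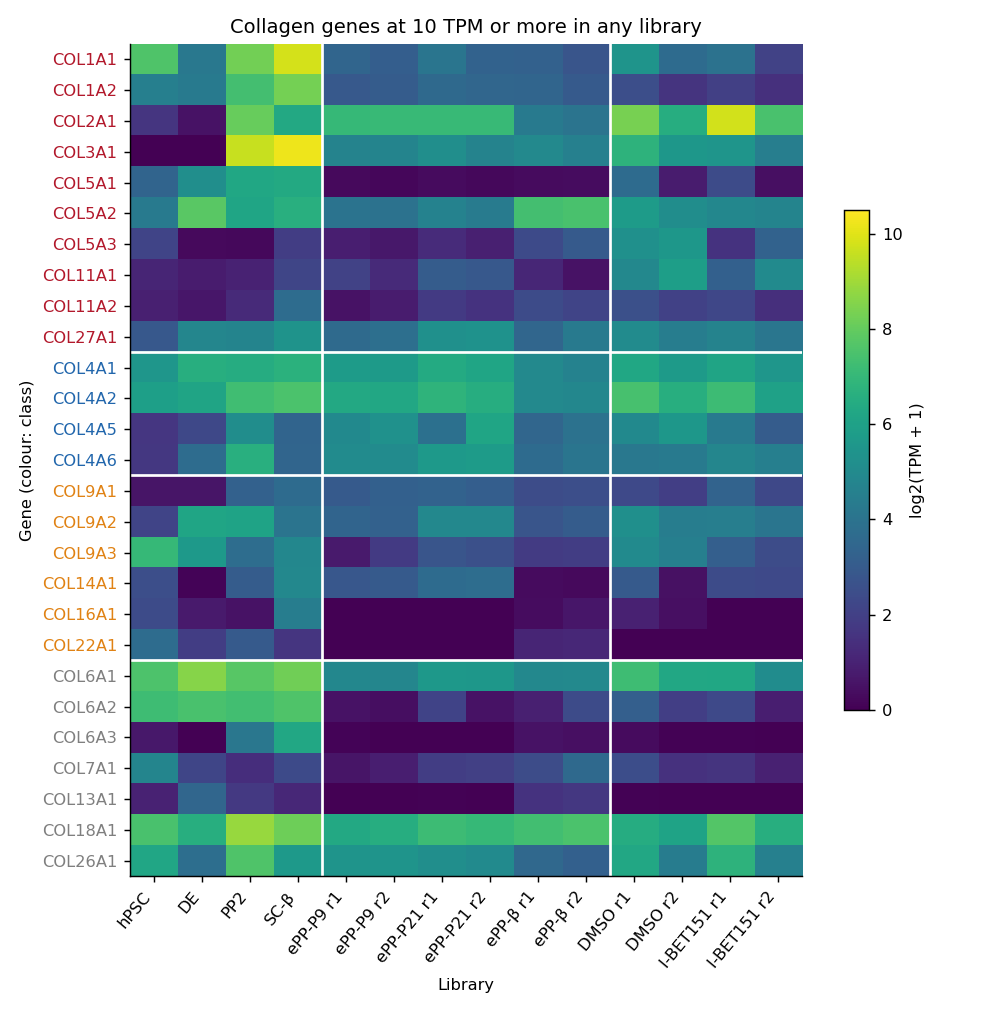
Level of the 27 collagen genes that reached 10 TPM, as log2(TPM + 1) in colour, by library (columns, white lines between batches) and gene (rows, label colour and white lines by class). COL3A1 runs from under 0.02 TPM in hPSC and DE to 1210.3 TPM in SC-β, and COL4A1, COL4A2 and COL18A1 are above 24 TPM in every column.

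COL1A1 (ENSG00000108821, chromosome 17, 50184101 to 50201632) and COL1A2 encode the chains of type I collagen, the main fibril protein of bone, skin and stroma. COL1A1 was at 195 TPM in hPSC, 17.5 TPM in DE, 310.2 TPM in PP2 and 896 TPM in SC-β. Batch 2 gave COL1A1 at 9.86 and 7.69 TPM for ePP-P9, 15.7 and 8.96 TPM for ePP-P21 and 8.63 and 5.9 TPM for ePP-β, and batch 3 at 42 and 11.8 TPM with DMSO and 14.7 and 3.23 TPM with I-BET151. The SC-β library held the highest level, and the 6 libraries of batch 2 lay between 5.90 and 15.7 TPM. COL1A2 was at 21.8 TPM in hPSC, 18.3 TPM in DE, 165 TPM in PP2 and 319 TPM in SC-β. Its levels in batch 2 were 6.55 and 7.4 TPM for ePP-P9, 10.9 and 10.1 TPM for ePP-P21 and 9.64 and 6.76 TPM for ePP-β, and those in batch 3 were 4.68 and 2.02 TPM with DMSO and 2.96 and 1.73 TPM with I-BET151. The trimer usually takes COL1A1 and COL1A2 chains in unequal number, and COL1A1 was the higher of the pair in 10 of the 14 libraries. The ratio of COL1A1 to COL1A2 ran from 0.872 to 8.97 with a median of 1.69, and it was 8.94 in hPSC, where COL3A1 was at 0.0111 TPM.

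COL3A1 (ENSG00000168542, chromosome 2, 188974373 to 189012746), the type III chain of vessels, skin and young stroma, was at 0.0111 TPM in hPSC, 0.000506 TPM in DE, 779 TPM in PP2 and 1210.3 TPM in SC-β. Batch 2 gave COL3A1 at 24.7 and 26 TPM for ePP-P9, 36 and 24.8 TPM for ePP-P21 and 29.7 and 22.8 TPM for ePP-β, and batch 3 at 110.1 and 46.2 TPM with DMSO and 43.8 and 21.7 TPM with I-BET151. It was the collagen gene with the highest level in PP2 and in SC-β, and the DMSO libraries both lay above the I-BET151 libraries. COL2A1 (ENSG00000139219, chromosome 12, 47972967 to 48004554), the fibril chain of cartilage and notochord, was at 2.08 TPM in hPSC, 0.435 TPM in DE, 266 TPM in PP2 and 80.7 TPM in SC-β. Batch 2 gave COL2A1 at 129.8 and 133 TPM for ePP-P9, 136 and 134 TPM for ePP-P21 and 18.8 and 15.5 TPM for ePP-β. The 4 ePP libraries agreed closely, and both ePP-β libraries lay far under them. Batch 3 gave COL2A1 at 329 and 93.1 TPM with DMSO and 889 and 179 TPM with I-BET151. The replicate 1 libraries were the higher of each pair by several fold, and COL2A1 had the highest level of any collagen gene in 6 libraries of batches 2 and 3.

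The type V and type XI chains set the diameter of fibrils. COL5A1 was at 9.37 TPM in hPSC, 35.2 TPM in DE, 75.1 TPM in PP2 and 83.3 TPM in SC-β. It was between 0.152 and 0.261 TPM in all 6 libraries of batch 2, and at 11.8 and 0.726 TPM with DMSO and 4.33 and 0.345 TPM with I-BET151. Its partner COL5A2 (ENSG00000204262, chromosome 2, 189031898 to 189225312) was at 19.2 TPM in hPSC, 226 TPM in DE, 70.3 TPM in PP2 and 97.4 TPM in SC-β. Batch 2 gave COL5A2 at 14.8 and 14.7 TPM for ePP-P9, 24 and 19.9 TPM for ePP-P21 and 161 and 179 TPM for ePP-β, and batch 3 at 53.3 and 34.1 TPM with DMSO and 28 and 25.6 TPM with I-BET151. So DE and the ePP-β libraries held the highest COL5A2 levels, and no COL5A1 chain of comparable level stood beside it in batch 2. The ratio of COL5A1 to COL5A2 spanned 733-fold across the 14 libraries, the widest of the pairs measured in all 14. COL5A3, a further type V chain, was at 3.39 TPM in hPSC, 0.214 TPM in DE, 0.158 TPM in PP2 and 2.74 TPM in SC-β, at 0.867 and 0.602 TPM for ePP-P9, 1.48 and 0.882 TPM for ePP-P21 and 4.07 and 6.88 TPM for ePP-β, and at 38.1 and 46.7 TPM with DMSO and 1.89 and 8.82 TPM with I-BET151. Both DMSO libraries were above every other library for COL5A3.

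COL11A1, the first type XI chain, was at 1.13 TPM in hPSC, 0.742 TPM in DE, 1.03 TPM in PP2 and 3.53 TPM in SC-β. Batch 2 gave COL11A1 at 3.16 and 1.37 TPM for ePP-P9, 7.23 and 6.52 TPM for ePP-P21 and 1.21 and 0.426 TPM for ePP-β, and batch 3 at 28.7 and 57.7 TPM with DMSO and 8.26 and 31.6 TPM with I-BET151. The 2 treatment groups overlapped, and their 4 libraries held the 4 highest COL11A1 levels of the series. COL11A2, the second type XI chain, was at 0.879 TPM in hPSC, 0.532 TPM in DE, 1.4 TPM in PP2 and 12.1 TPM in SC-β. Batch 2 gave COL11A2 at 0.442 and 0.756 TPM for ePP-P9, 2.44 and 1.92 TPM for ePP-P21 and 4.32 and 3.51 TPM for ePP-β, and batch 3 at 4.85 and 3.04 TPM with DMSO and 3.72 and 1.64 TPM with I-BET151. COL27A1 (ENSG00000196739, chromosome 9, 114155537 to 114312511), a fibrillar chain of cartilage, was at 6.41 TPM in hPSC, 26.9 TPM in DE, 25.5 TPM in PP2 and 41.6 TPM in SC-β. Batch 2 gave COL27A1 at 11.2 and 13.1 TPM for ePP-P9, 37.7 and 40.4 TPM for ePP-P21 and 10.2 and 19.3 TPM for ePP-β, and batch 3 at 32.7 and 20.6 TPM with DMSO and 25 and 16.3 TPM with I-BET151. The ePP-P21 libraries lay above the ePP-P9 libraries without overlap. The last fibrillar gene, COL24A1, stayed under 1 TPM in every library, with 0.224 TPM as its highest level.

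COL4A1 (ENSG00000187498, chromosome 13, 110148963 to 110307157) and COL4A2 (ENSG00000134871, chromosome 13, 110305812 to 110513209) encode the chains of the basement membrane network found in most tissues. COL4A1 was at 44.8 TPM in hPSC, 93.6 TPM in DE, 89.4 TPM in PP2 and 102 TPM in SC-β. Batch 2 gave COL4A1 at 53.1 and 52.4 TPM for ePP-P9, 85.5 and 71.7 TPM for ePP-P21 and 30.0 and 24.5 TPM for ePP-β, and batch 3 at 76.2 and 51.5 TPM with DMSO and 69.6 and 45.1 TPM with I-BET151. COL4A2 was at 59.7 TPM in hPSC, 68.7 TPM in DE, 155 TPM in PP2 and 186 TPM in SC-β. Batch 2 gave COL4A2 at 78.9 and 77.5 TPM for ePP-P9, 114 and 93 TPM for ePP-P21 and 29.5 and 27.8 TPM for ePP-β, and batch 3 at 173 and 96 TPM with DMSO and 147 and 63.6 TPM with I-BET151. For both genes the ePP-β libraries were the lowest of the whole series. COL4A2 was the higher chain in 12 of the 14 libraries, the exceptions being DE and ePP-β replicate 1. The ratio of COL4A1 to COL4A2 stayed between 0.439 and 1.36 (median 0.693), the narrowest span of the 9 pairs of partner chains at 3.10-fold. The 2 genes overlap at their starts on opposite strands and the use of strand in the quantification was not given, so reads from that overlap cannot be told apart.

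COL4A5 and COL4A6 encode chains of other basement membranes, such as those of smooth muscle and some epithelia. COL4A5 was at 2.18 TPM in hPSC, 3.82 TPM in DE, 34.2 TPM in PP2 and 9.37 TPM in SC-β. Batch 2 gave COL4A5 at 30.5 and 38.8 TPM for ePP-P9, 13.9 and 70.9 TPM for ePP-P21 and 9.89 and 14.6 TPM for ePP-β, and batch 3 at 30.2 and 46 TPM with DMSO and 19.2 and 7.2 TPM with I-BET151. The ePP-P21 replicates lay on either side of both ePP-P9 libraries, so no change with passage could be read from COL4A5. COL4A6 was at 2.28 TPM in hPSC, 11.9 TPM in DE, 96.7 TPM in PP2 and 9.81 TPM in SC-β. Batch 2 gave COL4A6 at 32.5 and 32.5 TPM for ePP-P9, 48.7 and 54 TPM for ePP-P21 and 11.9 and 15.9 TPM for ePP-β, and batch 3 at 17.3 and 18.7 TPM with DMSO and 27.6 and 22.4 TPM with I-BET151. PP2 held the highest COL4A6 level. COL4A3 and COL4A4, whose shared upstream stretch is printed above only in the part next to COL4A3, encode chains known from kidney and lung. They never exceeded 0.184 and 0.773 TPM.

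**Figure D3:**
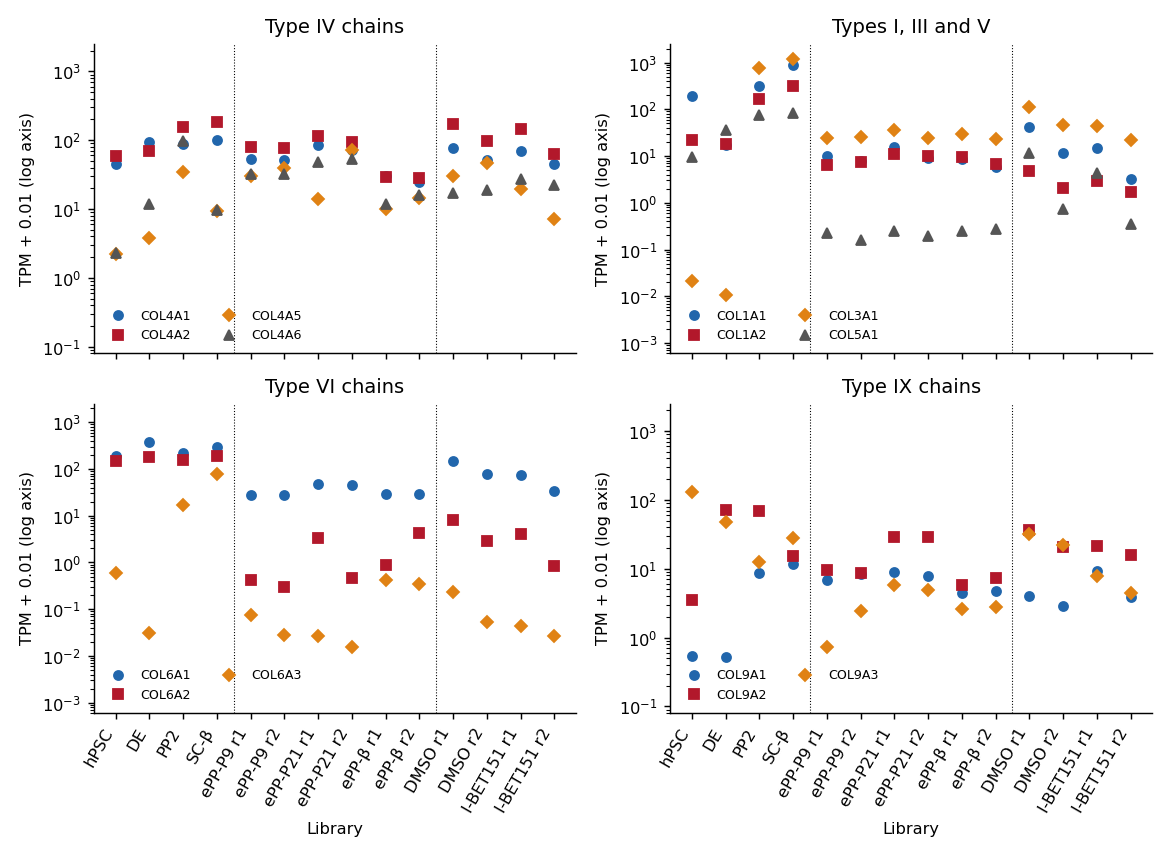
TPM + 0.01 on a log axis for each library (horizontal axis, dotted lines between batches), for chains of types IV, I, III and V, VI and IX, with a marker shape and colour per gene. COL4A1 and COL4A2 run close together, while COL6A2 lies far under COL6A1 in batches 2 and 3, COL6A3 lies under COL6A1 in all 14 libraries and COL5A1 lies at 0.152 to 0.261 TPM in batch 2.

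Type IX collagen, a FACIT on the fibrils of cartilage and the eye, is made of COL9A1, COL9A2 and COL9A3. COL9A1 was at 0.521 TPM in hPSC, 0.505 TPM in DE, 8.54 TPM in PP2 and 11.8 TPM in SC-β. Batch 2 gave COL9A1 at 6.81 and 8.43 TPM for ePP-P9, 8.83 and 7.81 TPM for ePP-P21 and 4.46 and 4.71 TPM for ePP-β, and batch 3 at 4 and 2.86 TPM with DMSO and 9.12 and 3.87 TPM with I-BET151. COL9A2 (ENSG00000049089, chromosome 1, 40300489 to 40317813) was at 3.51 TPM in hPSC, 71.6 TPM in DE, 67.9 TPM in PP2 and 15.3 TPM in SC-β. Batch 2 gave COL9A2 at 9.56 and 8.64 TPM for ePP-P9, 29.2 and 28.5 TPM for ePP-P21 and 5.87 and 7.3 TPM for ePP-β, and batch 3 at 36.6 and 20.9 TPM with DMSO and 21.5 and 15.9 TPM with I-BET151. The ePP-P21 libraries agreed closely for COL9A2 and lay above the other 4 libraries of batch 2. COL9A3 was at 129.5 TPM in hPSC, 48.4 TPM in DE, 12.6 TPM in PP2 and 28.4 TPM in SC-β. Batch 2 gave COL9A3 at 0.713 and 2.45 TPM for ePP-P9, 5.84 and 4.86 TPM for ePP-P21 and 2.59 and 2.76 TPM for ePP-β, and batch 3 at 31.7 and 22.3 TPM with DMSO and 7.95 and 4.46 TPM with I-BET151. Thus hPSC held COL9A3 at the highest level of the 3 chains in any library but little of its partners, whereas COL9A2 was above COL9A1 in all 14 libraries. COL9A3 overlaps the protein-coding gene TCFL5 on the opposite strand.

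The other FACIT genes varied from library to library. COL14A1, a chain that binds fibrils through decorin, was at 4.73 TPM in hPSC, 0.0623 TPM in DE, 7.41 TPM in PP2 and 28.7 TPM in SC-β. Batch 2 gave COL14A1 at 6.25 and 6.85 TPM for ePP-P9, 11.8 and 12.6 TPM for ePP-P21 and 0.242 and 0.194 TPM for ePP-β, and batch 3 at 6.78 and 0.384 TPM with DMSO and 4.28 and 3.94 TPM with I-BET151. The ePP-β libraries lay far under the ePP libraries, and the DMSO replicates differed widely. COL16A1 was at 4.25 TPM in hPSC, 0.671 TPM in DE, 0.424 TPM in PP2 and 21 TPM in SC-β. It was listed at 0 in both ePP-P9 libraries, and was at 0.0207 and 0.0091 TPM for ePP-P21 and 0.268 and 0.546 TPM in ePP-β. With DMSO it was at 0.97 and 0.351 TPM, and with I-BET151 at 0.000404 TPM in replicate 1 and listed at 0 in replicate 2. SC-β was thus the 1 library in which COL16A1 passed 10 TPM. COL22A1, found at tissue junctions such as that of muscle and tendon, was at 12.1 TPM in hPSC, 2.71 TPM in DE, 6.75 TPM in PP2 and 2.04 TPM in SC-β. It was listed at 0 in both ePP-P9 libraries and in ePP-P21 replicate 2, at 0.0127 TPM for ePP-P21 replicate 1, and at 1.14 and 1.25 TPM in ePP-β. Of the batch 3 libraries, the second DMSO replicate lists COL22A1 at 0, the first holds 0.0258 TPM, and those with I-BET151 hold 0.00659 and 0.0083 TPM. COL12A1 and COL21A1 peaked at 5.82 and 1.6 TPM, and COL19A1 and COL20A1 stayed under 1 TPM.

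Type VI collagen forms beaded filaments around cells from COL6A1, COL6A2 and COL6A3. COL6A1 was at 188 TPM in hPSC, 380.2 TPM in DE, 217 TPM in PP2 and 295 TPM in SC-β. Batch 2 gave COL6A1 at 28.3 and 27.1 TPM for ePP-P9, 48.1 and 46.4 TPM for ePP-P21 and 28.7 and 29.6 TPM for ePP-β, and batch 3 at 150.1 and 76.9 TPM with DMSO and 74.6 and 33.3 TPM with I-BET151. COL6A2 was at 151 TPM in hPSC, 180.3 TPM in DE, 157 TPM in PP2 and 194 TPM in SC-β. Batch 2 gave COL6A2 at 0.407 and 0.294 TPM for ePP-P9, 3.29 and 0.445 TPM for ePP-P21 and 0.88 and 4.22 TPM for ePP-β, and batch 3 at 8.09 and 2.87 TPM with DMSO and 3.99 and 0.837 TPM with I-BET151. COL6A1 was the higher of the pair in all 14 libraries, with a ratio from 1.25 to 104 (median 18.6). COL6A3, which carries the longest chain, was at 0.584 TPM in hPSC, 0.0205 TPM in DE, 16.7 TPM in PP2 and 77 TPM in SC-β. Batch 2 gave COL6A3 at 0.065 and 0.0182 TPM for ePP-P9, 0.0161 and 0.00589 TPM for ePP-P21 and 0.422 and 0.337 TPM for ePP-β, and batch 3 at 0.221 and 0.0431 TPM with DMSO and 0.0344 and 0.0171 TPM with I-BET151. COL6A3 therefore reached 1 TPM in PP2 and SC-β only, which had 8 and 9 of the 10 mesenchymal markers at 1 TPM or more. Both DMSO libraries had 6 of these markers with COL6A3 at 0.221 and 0.0431 TPM. The part of mesenchymal cells in its level was not tested. COL6A5 and COL6A6 stayed under 1 TPM.

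COL18A1 (ENSG00000182871, chromosome 21, 45405165 to 45513720), a basement membrane multiplexin whose end is cut to endostatin, was at 176 TPM in hPSC, 95.8 TPM in DE, 467 TPM in PP2 and 290.4 TPM in SC-β. Batch 2 gave COL18A1 at 78.9 and 91.6 TPM for ePP-P9, 146 and 130.2 TPM for ePP-P21 and 159 and 181 TPM for ePP-β, and batch 3 at 88.9 and 66.8 TPM with DMSO and 203 and 93.5 TPM with I-BET151. It ranked first or second among the collagen genes in all 6 libraries of batch 2 and was at its highest in PP2. COL26A1 was at 73.8 TPM in hPSC, 12.8 TPM in DE, 193 TPM in PP2 and 50.7 TPM in SC-β. Batch 2 gave COL26A1 at 41.9 and 42.8 TPM for ePP-P9, 35.9 and 31.8 TPM for ePP-P21 and 10.7 and 8.34 TPM for ePP-β, and batch 3 at 76.8 and 20.2 TPM with DMSO and 109 and 22.9 TPM with I-BET151. The replicates of batch 3 were again several fold apart. COL7A1, the anchoring fibril chain of skin, was at 26.6 TPM in hPSC, 3.55 TPM in DE, 1.6 TPM in PP2 and 4.19 TPM in SC-β. Batch 2 gave COL7A1 at 0.528 and 0.852 TPM for ePP-P9, 2.79 and 2.99 TPM for ePP-P21 and 4.4 and 10.9 TPM for ePP-β, and batch 3 at 4.63 and 1.79 TPM with DMSO and 1.98 and 0.937 TPM with I-BET151. COL13A1, a membrane collagen of cell contacts, was at 1.01 TPM in hPSC, 10.1 TPM in DE, 2.32 TPM in PP2 and 1.24 TPM in SC-β. Its levels in ePP-β were 1.94 and 2.23 TPM, and in the other 8 libraries of batches 2 and 3 it did not exceed 0.0488 TPM.

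COL17A1 (ENSG00000065618, chromosome 10, 104031286 to 104085880), the membrane collagen of hemidesmosomes, was at 0.955 TPM in hPSC, 0.0316 TPM in DE, 2.11 TPM in PP2 and 0.149 TPM in SC-β. Batch 2 gave COL17A1 at 0.0617 and 0.0869 TPM for ePP-P9, 0.0345 and 0.0435 TPM for ePP-P21 and 0.561 and 0.747 TPM for ePP-β, and batch 3 at 8.98 and 6.94 TPM with DMSO and 0.0733 and 0.0683 TPM with I-BET151. The DMSO libraries were the 2 highest of the series, and both I-BET151 libraries were under 0.1 TPM. COL8A1 reached 6.1 TPM in hPSC and stayed at or under 0.118 TPM elsewhere. COL8A2 (1.85 TPM), COL15A1 (9.05 TPM), COL23A1 (2.88 TPM) and COL28A1 (4.31 TPM) peaked between 1 and 10 TPM, and COL10A1 and COL25A1 stayed under 1 TPM. Of the 44 genes, 26 overlap another listed gene, 21 of them on the opposite strand.

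The direct path from hPSC to SC-β was followed as differences of log2(TPM + 1) between single libraries, which have no replicate check and no test. From hPSC to DE, 8 collagen genes were more than 2-fold higher and 12 were more than 2-fold lower among the 27 at 1 TPM in either library. Over all genes kept, 10.8% were higher and 16.1% were lower. The largest positive difference on the log2 scale was that of COL9A2 (4.01), followed by COL5A2 (3.49), COL13A1 (2.47) and COL4A6 (1.98). The lower genes were led by COL1A1 (-3.41), COL8A1 (-2.82) and COL7A1 (-2.60), and 5 of the 6 FACIT genes kept were among them. From DE to PP2, 17 of 30 collagen genes were higher and 3 were lower, beside 27.2% and 9.83% of all genes. The genes furthest up were COL3A1 (9.61), COL2A1 (7.54), COL6A3 (4.12), COL1A1 (4.08) and COL26A1 (3.81). COL9A3 (-1.86), COL13A1 (-1.74) and COL5A2 (-1.67) were the 3 lower genes. With each library centred on its median, the split of this step was 12 higher and 6 lower. The share over all genes was not counted after centring, so this split has no background beside it.

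From PP2 to SC-β, 9 of 33 collagen genes were higher and 7 were lower, beside 12.7% and 22.1% of all genes. COL16A1 (3.95), COL11A2 (2.45), COL6A3 (2.14) and COL14A1 (1.82) were furthest up. COL4A6 (-3.18), COL9A2 (-2.08), COL26A1 (-1.91), COL4A5 (-1.76) and COL2A1 (-1.71) were furthest down. Centred libraries gave 14 higher and 6 lower, again without a count over all genes. The median difference between these libraries over all genes kept was -0.37 before centring. PP2 also had all 7 endothelial markers at 1 TPM or more and SC-β had 1, and the part of this in the step was not tested.

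In ePP-β cells, compared with the ePPs of both passages, the collagen genes changed in both directions. The passage of the ePPs that gave the ePP-β libraries is not stated in the labels. The basement membrane chains COL4A1, COL4A2 and COL4A6 fell, as did COL2A1, COL14A1 and COL26A1. COL5A2, COL5A3, COL7A1 and COL13A1 rose. A gene was called at an adjusted p under 0.05 (limma on log2(TPM + 1), Benjamini-Hochberg over all genes tested) with a log2 fold change above 1 or below -1. Of 26 collagen genes that passed the filter of 1 TPM in 2 libraries, 6 were called higher and 8 lower. Of all 18076 genes, 17.9% were called higher and 9.86% lower. The median log2 fold change was -0.38 over the collagen genes and -0.03 over all genes, and with no filter on low values it was 0.0153 over the 44 collagen genes. By class it was -1.45 for 4 basement membrane genes, -0.70 for 6 FACIT genes, -0.08 for 9 fibrillar genes and 0.77 for 7 others. COL13A1 and COL22A1 passed the filter only through the ePP-β libraries, and COL12A1 and COL14A1 only through the ePP libraries, so these 4 had to differ. COL5A3 was at 1.48 TPM in ePP-P21 replicate 1 and under 1 TPM in the other ePP libraries, so it needed the ePP-β libraries to pass.

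COL5A2 had a log2 fold change of 3.17 (SE 0.10, adjusted p = 9.7e-06), the highest of the collagen genes with the pseudocount of 1, whereas with a pseudocount of 0.1 it was at 3.24 and under COL13A1 (4.27) and COL22A1 (3.65), with COL14A1 at -4.83. COL5A3 rose by 1.71 (SE 0.24, adjusted p = 0.00166), COL7A1 by 1.65 (SE 0.33, adjusted p = 0.00666) and COL13A1 by 1.60 (SE 0.13, adjusted p = 0.000178). COL11A2 had a value of 1.13 (SE 0.18, adjusted p = 0.00271) and COL22A1 of 1.13 (SE 0.12, adjusted p = 0.000557). Both calls were lost when the libraries were centred on their medians, at 0.99 and 0.99, and under quantile normalization, at 0.68 and 0.56. For COL22A1 and COL13A1, whose ePP levels were at or near 0, the fitted value depends on the pseudocount of 1. COL14A1 changed by -3.04 (SE 0.15, adjusted p = 2.94e-05) and COL2A1 by -2.89 (SE 0.09, adjusted p = 8.7e-06). COL26A1 changed by -1.90 (SE 0.12, adjusted p = 7.95e-05) and COL11A1 by -1.49 (SE 0.30, adjusted p = 0.0068). The type IV chains changed by -1.61 (SE 0.10, adjusted p = 6.7e-05) for COL4A2, -1.51 (SE 0.13, adjusted p = 0.000227) for COL4A6 and -1.22 (SE 0.12, adjusted p = 0.000335) for COL4A1, and COL4A5 had a value of -1.39 (SE 0.60, adjusted p = 0.0948) that was not called. COL9A2 changed by -1.20 (SE 0.13, adjusted p = 0.000577), while its partners COL9A1 at -0.68 and COL9A3 at -0.09 were not called. COL18A1 at 0.64 and COL6A1 at -0.30 had adjusted p values of 0.00244 and 0.0174 but smaller changes. COL1A1, COL1A2 and COL3A1, the main stromal fibril genes, had adjusted p values of 0.189, 0.733 and 0.727. Quantile normalization gave 4 higher and 10 lower, beside 14.3% and 15.9% of all genes, with the median of all genes at -0.19. In a fit of all 10 replicated libraries COL11A1 and COL26A1 were not called (adjusted p = 0.0595 and 0.0512). Among 4 tested mesenchymal markers, TWIST1 rose (1.59) and PDGFRB (-1.15) and POSTN (-1.97) fell. TWIST1 was under 1 TPM in every ePP library, so it passed the filter only through the ePP-β libraries and had to be higher. Among 5 epithelial markers CDH1 rose (1.02) and KRT8 (-2.45) and KRT18 (-1.71) fell, and the part of such cells in the collagen changes was not tested.

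**Figure D4:**
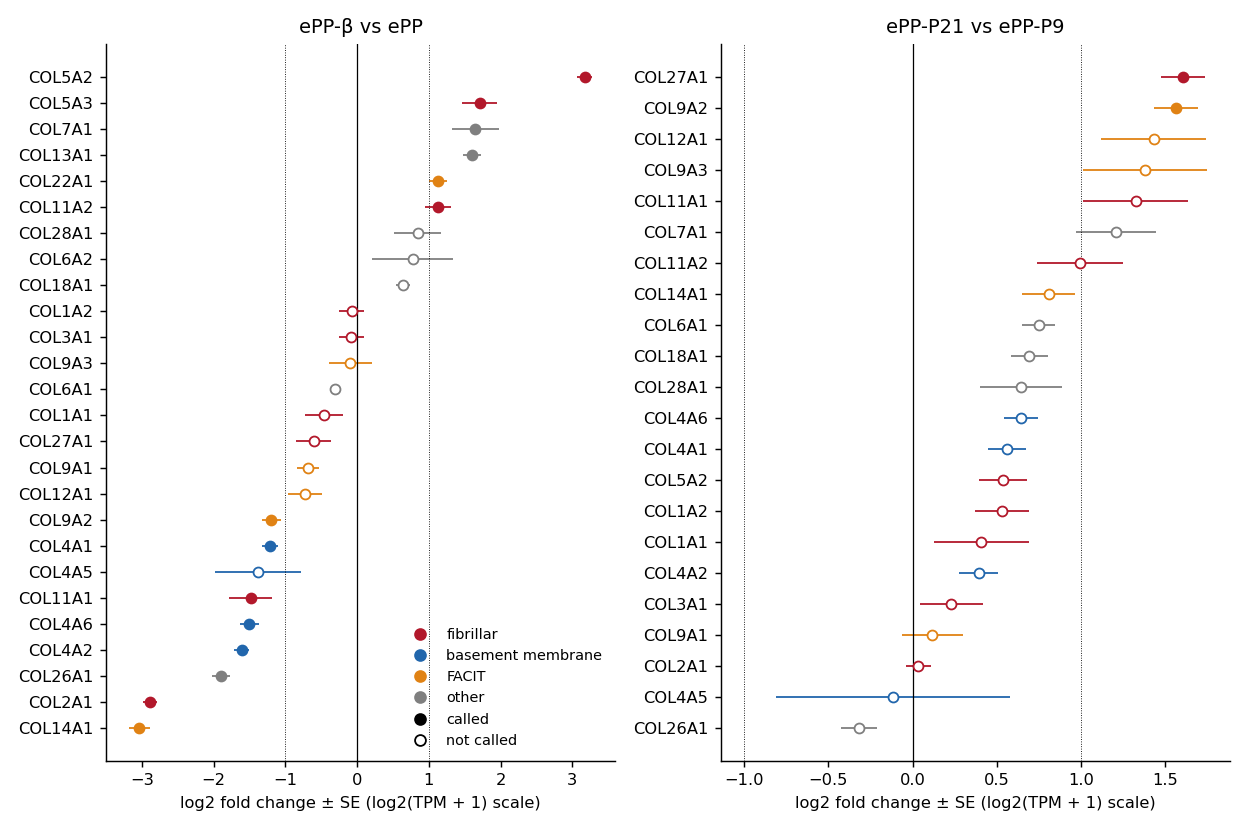
Log2 fold change with its standard error for each collagen gene tested in ePP-β against ePP (left) and in ePP-P21 against ePP-P9 (right), coloured by class, filled where called, with dotted lines at -1 and 1. On the left COL5A2 (3.17) and COL14A1 (-3.04) mark the ends, and on the right COL27A1 and COL9A2 are the filled points.

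The genes that fold, modify, process and crosslink collagen were followed as fixed lists in the same fit. Over all genes of this fit 17.9% were called higher and 9.86% lower, and the list counts below were not tested against these shares. Crosslinking genes rose for the most part, with 4 of 6 called higher and 1 lower (list median log2 fold change 2.59). LOXL4, a lysyl oxidase, changed by 5.93 to 103 and 83.8 TPM in ePP-β from 0.26 and 0.296 TPM for ePP-P9 and 0.65 and 1.09 TPM for ePP-P21. Of the ePP libraries, LOXL4 reached 1 TPM in ePP-P21 replicate 2 alone, so it needed the ePP-β libraries to pass the filter. LOXL3 (3.36) and LOXL1 (3.14) also rose, as did LOX (2.03). PXDN, the peroxidasin that crosslinks type IV collagen, fell (-1.95, adjusted p = 9.9e-06) from 133 and 124 TPM for ePP-P9 and 161 and 159 TPM for ePP-P21 to 36.3 and 36.6 TPM in ePP-β. Among 14 tested modifying enzymes 3 were higher and 3 lower. Those named are the prolyl hydroxylase relatives P3H3 (2.41) and P3H4 (2.25), the 4-hydroxylase subunit P4HA2 (2.06) and CRTAP (-2.02), a partner of prolyl 3-hydroxylase. Of 8 chaperone and export genes, FKBP10 rose (2.40) and SPARC fell (-1.01). SERPINH1, the collagen chaperone HSP47, was at 195 and 204 TPM for ePP-P9 and 159 and 155 TPM for ePP-P21, and at 123 and 115 TPM in ePP-β (-0.57, not called). PXDN and SERPINH1 were picked for this paragraph after their values were seen. Of 6 tested processing genes, ADAMTS2 (1.91), which removes the amino-terminal propeptide, and PCOLCE (1.52), which speeds removal of the carboxy-terminal one, rose. ADAMTS2 did not exceed 0.0498 TPM in the ePP libraries. It passed the filter only through the ePP-β libraries and so had to be higher, and its fitted value depends on the pseudocount of 1. DDR1 (1.49) was the 1 receptor called of 5 tested, and of 6 tested breakdown genes the collagenase MMP1 (2.77) and the inhibitors TIMP2 (2.48) and TIMP1 (2.04) rose.

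Between passages 9 and 21 of the ePPs, COL27A1 and COL9A2 were the 2 collagen genes called, both higher at passage 21. Of 22 collagen genes tested, 2 were called higher and 0 lower, and 17 had an unadjusted p under 0.05, compared with 3641 of all 15822 genes. Over all genes, 1.07% were called higher and 0.0569% lower. COL27A1 had a log2 fold change of 1.61 (SE 0.13, adjusted p = 0.0319) and COL9A2 of 1.56 (SE 0.13, adjusted p = 0.0319). The next in size were COL12A1 at 1.43 (SE 0.31, adjusted p = 0.082), COL9A3 at 1.38 (SE 0.37, adjusted p = 0.113), COL11A1 at 1.33 (SE 0.31, adjusted p = 0.0917) and COL7A1 at 1.21 (SE 0.24, adjusted p = 0.0738), none of them called. COL6A1 (0.75) and COL4A6 (0.64) had adjusted p values of 0.0379 and 0.0499 with changes under 1. COL4A1, COL4A2 and COL18A1 had values of 0.56, 0.39 and 0.69, and COL2A1 of 0.03. The values were above 0 for 20 of the 22 genes with a median of 0.64, against 0.13 over all genes, but COL7A1, COL11A2, COL12A1 and COL28A1 passed the filter only through the ePP-P21 libraries and so had to be higher. With median centring or quantile normalization 18 of 22 were above 0, and the collagen genes called numbered 0 and 1. Over all genes 0% and 0.0632% were called higher in those fits. Both calls were lost without ePP-P21 replicate 1 and without ePP-P21 replicate 2, where no gene of 15202 and of 15138 tested was called higher (limma, with 3664 and 2696 at an unadjusted p under 0.05). The fold changes were then 1.55 and 1.58 for COL9A2 and 1.65 and 1.56 for COL27A1. By contrast COL27A1 and COL9A2 stayed called when either ePP-P9 library was left out. The summed mesenchymal markers were at 20.0 and 21.1 TPM for ePP-P9 and 33.7 and 21 TPM for ePP-P21, which overlap. No gene of the 6 collagen assembly, receptor and breakdown lists was called, and 43 of their 57 genes were tested.

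With I-BET151 for 7 days, no collagen gene was called against DMSO. Of 26 tested, 0 were called in either direction by limma and 5 had an unadjusted p under 0.05, compared with 2536 of all 16687 genes. Over all genes 0.00599% were called higher and 0.204% lower, so the lack of calls is not particular to collagen genes. The paper, which tested counts with DESeq2 at the same thresholds, reported far more changed genes for this comparison. COL17A1 came nearest, with 8.98 and 6.94 TPM with DMSO and 0.0733 and 0.0683 TPM with I-BET151, at a log2 fold change of -3.05 (SE 0.30, adjusted p = 0.0505). It passed the filter only through the DMSO libraries, as did COL28A1 (-1.32 (SE 0.38, adjusted p = 0.211)). COL5A3 was at -3.02 (SE 0.63, adjusted p = 0.128), COL9A3 at -1.98 (SE 0.40, adjusted p = 0.122) and COL4A5 at -1.57 (SE 0.54, adjusted p = 0.271). For all 5 of these genes both I-BET151 libraries lay under both DMSO libraries. They are the genes with an unadjusted p under 0.05, so this is no separate result, and the share over all genes was not counted. COL3A1, COL5A2 and COL6A1 were also lower without overlap, and COL4A6 and COL18A1 were higher without overlap. With 2 libraries per group and no share over all genes, these separations are not read as a result about collagen genes. COL3A1 (-1.18) and COL1A1 (-1.52) had adjusted p values of 0.41 and 0.471, and COL2A1, the gene with the largest positive value at 1.18, had 0.624. Its groups overlapped. The median over the 26 genes was -0.64 against 0.16 over all genes, with 6 values above 0 and 20 below under either scaling alternative too. COL17A1 alone was called lower when libraries were centred or quantile normalized, beside 0.713% and 0.809% of all genes. Without I-BET151 replicate 1 there were 5 lower, beside 3.81% of all genes. Without I-BET151 replicate 2 there were 3 lower and COL2A1 higher, beside 4.66% and 1.76% of all genes.

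**Figure D5:**
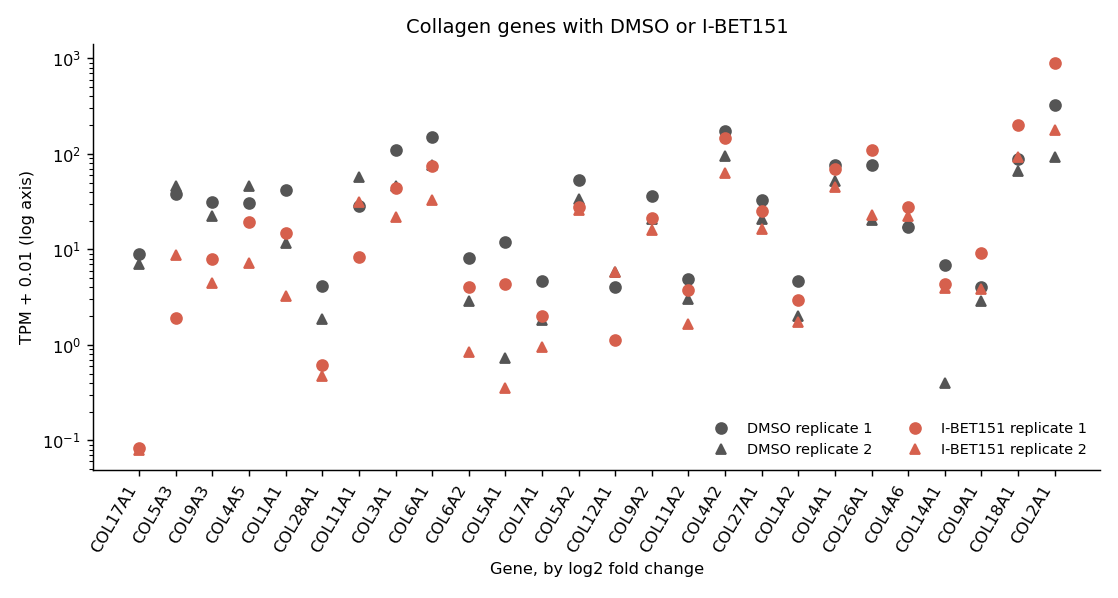
TPM + 0.01 on a log axis of the 26 tested collagen genes in the 4 libraries of batch 3, ordered by log2 fold change from COL17A1 on the left to COL2A1 on the right, with grey for DMSO, red for I-BET151, circles for replicate 1 and triangles for replicate 2. The colours separate for COL17A1, COL5A3, COL9A3, COL4A5 and COL28A1 on the left, and for COL2A1 the circles lie above the triangles of the same colour. The groups also do not overlap for COL3A1, COL6A1 and COL5A2, lower with I-BET151, and for COL4A6 and COL18A1, higher with I-BET151. The share of all genes without overlap was not counted, so the separations are not read as a result.

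Outside the chains, LOX was the 1 gene of the 6 assembly, receptor and breakdown lists that was called in the I-BET151 comparison. It was at 51.2 and 38.7 TPM with DMSO and 1.82 and 2.62 TPM with I-BET151, a log2 fold change of -3.83 (SE 0.34, adjusted p = 0.048). The mesenchymal marker LUM, whose product lumican binds collagen fibrils, was at 16.2 and 14.2 TPM with DMSO and 0.477 and 0.67 TPM with I-BET151 (-3.37 (SE 0.30, adjusted p = 0.048)). LUM passed the filter only through the DMSO libraries and so had to be lower. It was the 1 marker called of 5 tested, beside the summed mesenchymal levels given above. The part of mesenchymal cells in the collagen values was not tested. MMP1 was at 1291 and 717 TPM with DMSO and 15 and 36 TPM with I-BET151 (log2 fold change -5.31, adjusted p = 0.0548). This gene was picked after its values were seen. None of the 14 tested modifying enzymes was called, nor any of the 8 chaperone and export genes.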

How the data were processed

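Total RNA of 14 samples of MEL1 cells and their derivatives was sequenced as paired ends after preparation with the NEBNext Ultra kit. The authors aligned the reads to the human genome (GRCh38) with HISAT2 2.1.0, as the submitters' processing notes also record, and quantified genes with StringTie. The deposited values are TPM per Ensembl gene, which the authors did not scale further. Which annotation release was used, and whether strand was used, are not given in the sources used here. Depth is unknown, so the precision rests on 2 libraries per group.

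Symbols and positions came from GENCODE release 44 (GRCh38), which matched 60370 of 60624 identifiers. Groups came from sample titles and batches from the descriptions. The members and the gene lists were chosen with earlier results of these data known. Genes at 1 TPM or more in at least 2 libraries of a fit were tested on log2(TPM + 1), which understates changes of low genes, with limma 3.58.1 (R 4.3.3, trended eBayes), two-sided. Fits stayed within a batch, and all genes kept entered the Benjamini-Hochberg adjustment. Against ePP-β, both passages of ePPs were given equal weight. The authors tested counts with DESeq2, which TPM do not allow. Single libraries were compared over genes at 1 TPM or more in either, past 2-fold. Named with values were members at 10 TPM or more in any library, members called and partner chains, and up to 4 called genes per list and comparison. The alternatives were a pseudocount of 0.1, no filter, a filter of 5 TPM, median centring, quantile normalization, the replicate number as a block, the adjusted p alone, 1 fit of all 10 replicated libraries, and each library left out. The code was tested on simulated data. Promoter sequences are RefSeq windows.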

Additional observations from a re-analysis of the deposited data

How the results depend on the processing

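For I-BET151 against DMSO, where 0 collagen genes were called, COL17A1 alone was lower with median centring or quantile normalization. Over all genes 0.713% and 0.809% were lower in those fits. In a fit of all 10 replicated libraries 3 collagen genes were lower, beside 7.06% of all genes. Fits with 1 library left out rest on a single library in 1 group, and those without an I-BET151 library are given above. For ePP-P21 against ePP-P9, where 2 were called higher, there were 0 with no filter, with median centring and in the 10-library fit. No gene of any kind was called higher in those fits. Quantile normalization gave 1, beside 0.0632% of all genes, and the adjusted p alone gave 4, beside 1.82%. For ePP-β against ePP, where 6 were called higher, a filter of 5 TPM left 1, because it kept 17 genes, beside 15.7% of all genes. The 8 lower genes were all called in each fit that left out 1 library. With the replicate number as a block, 1 collagen gene was higher (COL2A1) and 8 were lower with I-BET151, beside 4.96% and 8.79% of all genes. The titles give groups the same numbers but not that these pair the libraries. The difference between replicates correlated across genes at r = 0.675 between DMSO and I-BET151 and at -0.0093 between ePP-P9 and ePP-P21. The block left the 2 calls between passages in place, beside 0.405% of all genes called higher. It gave 6 higher and 9 lower in ePP-β, beside 17.9% and 9.95% of all genes. From hPSC to DE, 6 collagen genes instead of 12 were lower with a filter of 5 TPM. From DE to PP2, 5 instead of 3 were lower with a pseudocount of 0.1 and 6 with median centring, and from PP2 to SC-β median centring gave 14 higher instead of 9. For these steps the shares over all genes were counted in the main setting only. No fold change of a called gene changed sign under any alternative run. With no filter on low values, the median over the 44 collagen genes in ePP-β against ePP was 0.0153, with 25 above 0 and 19 below, in place of -0.38 over the 26 genes filtered, and the genes added were under 1 TPM in at least 5 of the 6 libraries. Except where the numbers of genes kept are given, the cause of a moved count was not tested. Rescaling each library to its protein-coding genes had to raise the summed collagen level in all 14 libraries, because those genes make up only part of each library. It gave 232, 323 and 97.3 TPM for the basement membrane class in ePP-P9, ePP-P21 and ePP-β.

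The limits are the 1 cell line, the 2 libraries per group, the single libraries of batch 1, the unknown depth and the unknown use of strand. A value near 0 in these libraries is not a detection limit.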

Other observations

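The genes that handle collagen also differed along the direct path, where each stage had 1 library and no test was possible. All genes in this paragraph were picked after their values were seen. SERPINH1, the chaperone HSP47, was at 742 TPM in hPSC, 398 TPM in DE, 1223 TPM in PP2 and 259 TPM in SC-β. FKBP10, a prolyl isomerase of the collagen folding machinery, was at 274 TPM in hPSC, 197 TPM in DE, 622 TPM in PP2 and 301 TPM in SC-β. Both were at their highest in PP2 among these 4 libraries. The ADAMTS2 protease was at 5.44 TPM in hPSC, 0.245 TPM in DE, 4.8 TPM in PP2 and 50.1 TPM in SC-β, so SC-β held the highest level beside its fibrillar sum of 2747 TPM. BMP1, the protease for the carboxy-terminal propeptide, was at 9.5 TPM in hPSC, 8.92 TPM in DE, 98.8 TPM in PP2 and 87.3 TPM in SC-β. LOXL4 was at 3.92 TPM in hPSC, 1.53 TPM in DE, 1.64 TPM in PP2 and 95.9 TPM in SC-β, and SC-β and the ePP-β libraries (103 and 83.8 TPM) held its highest levels in their batches.

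The genes of collagen breakdown had another order. MMP14, the membrane collagenase, was at 75.3 TPM in hPSC, 221 TPM in DE, 458 TPM in PP2 and 71.8 TPM in SC-β, and MMP2, the gelatinase that it activates, was at 39.1 TPM in hPSC, 44.3 TPM in DE, 138 TPM in PP2 and 58.7 TPM in SC-β. Both were highest in PP2. MMP2 was between 0.372 and 1.59 TPM in the 6 libraries of batch 2, and MMP14 was at 54.3 and 57.7 TPM for ePP-P9, 105 and 95.3 TPM for ePP-P21 and 58.5 and 57.7 TPM for ePP-β. The DMSO and I-BET151 libraries held MMP14 at 287 and 206 and 109 and 99.1 TPM in turn.

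Among the collagen receptors, the shared integrin subunit ITGB1 was at 257 TPM in hPSC, 147 TPM in DE, 411 TPM in PP2 and 218 TPM in SC-β, and at 448 and 483 TPM for ePP-P9, 542 and 546 TPM for ePP-P21 and 453 and 275 TPM for ePP-β. Its partner ITGA1 was at 1.3 TPM in hPSC, 0.296 TPM in DE, 4.18 TPM in PP2 and 16 TPM in SC-β, and at 12.7 and 13.2 TPM for ePP-P9, 17.2 and 13.7 TPM for ePP-P21 and 27.3 and 24.8 TPM for ePP-β. DDR1, a receptor kinase of epithelial cells that binds collagen, was at 63.3 TPM in hPSC, 54.3 TPM in DE, 109 TPM in PP2 and 146 TPM in SC-β. GP6 and LAIR1, receptors of platelets and white blood cells, did not exceed 0.086 TPM in any library.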
